A study of Mus musculus with 9 samples.

Results

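Interferon gamma, its receptor and the chemokines it induces were followed as 7 genes in mouse skin: the ligand gene Ifng, the receptor chain genes Ifngr1 and Ifngr2, the chemokine genes Cxcl9, Cxcl10 and Cxcl11, and Cxcr3, the gene of the receptor shared by those chemokines. They were found by symbol among array features (transcript clusters) that the platform annotation gives exactly 1 gene symbol, with 1 cluster kept per gene. All 7 were present, each with a single cluster, among 30142 genes measured. Total RNA came from neck skin of male C57BL/6 mice aged 6 to 8 weeks, with 3 arrays per group, which the labels call biological replicates. In the oxazolone and urushiol groups the named allergen was applied at 2.0% to the shaved abdomen. From 5 days later each mouse was painted on the shaved nape with 0.5% of the same allergen in 40 µl acetone, 5 times in all, the last on day 8, and skin was collected 4 hours after that. Control mice had healthy skin, and the sources used here do not say whether they were clipped or received acetone alone. Oxazolone is a synthetic hapten, a small molecule that becomes an allergen by binding protein, and urushiol is the oily allergen of poison ivy and related plants.

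Interferon gamma is a cytokine made mainly by T cells and natural killer (NK) cells. Its receptor, built from the IFNGR1 and IFNGR2 chains, signals through the kinases JAK1 and JAK2, and genes it induces can carry interferon gamma activated sites (GAS) in their regulatory DNA. IRF1 is a transcription factor among the products induced. CXCL9, CXCL10 and CXCL11 are chemokines induced by interferons that attract activated T cells and NK cells carrying CXCR3. Allergic contact dermatitis is a skin inflammation driven by T cells that recognise the hapten.

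All values are deposited log2 values of a probe set, so levels are compared between groups for a gene and never between genes. In whole skin, fewer cells of a type and less RNA per cell cannot be told apart. The values reach 19.93, above the log2 limit of 16 that a scanner of that many bits allows, and the sources used here do not say which step carries them there. Log2 differences may therefore not equal log2 ratios of RNA amounts. The median cluster lay between 5.53 and 5.64 on every array, so a value near 5.6 or below is dim. Control array 3 stood apart: the mean of 12 hair follicle markers was 12.01 on it, against 6.15 and 6.39 on control arrays 1 and 2, and its correlation with them across genes was 0.979 and 0.978, against 0.995 between those 2. Keratinocyte markers, which define skin, averaged 16.33 to 16.76 on oxazolone arrays, 16.59 to 16.87 on urushiol arrays and 16.19 to 16.86 on control arrays. Skeletal muscle markers averaged 7.01 to 8.56, 10.56 to 11.31 and 14.56 to 17.13 on oxazolone, urushiol and control arrays, so the samples also differed in muscle RNA, whose part in the results was not tested.

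The DNA just upstream of Ifng, Cxcl9 and Cxcl10 is shown because these genes were among those that carried the main difference among the groups. Cxcl11 differed too, but the RefSeq sequences held no window for it. Each line gives the 250 bases before the RefSeq transcript start in the mouse assembly GRCm38.p6, 5′ to 3′ on the gene's strand. Ifng is at chr10:118440796-118441045 (+), Cxcl9 at chr5:92328080-92328329 (-) and Cxcl10 at chr5:92348890-92349139 (-). Capitals mark matches to any of 5 motifs, searched on both strands: the interferon-stimulated response element (ISRE, as GAAA, any 2 bases, GAAA), the GAS (TTCNNNGAA), the NF-kB consensus, the CCAAT box (CCAAT) and the TATA box (TATAAA).
Ifng: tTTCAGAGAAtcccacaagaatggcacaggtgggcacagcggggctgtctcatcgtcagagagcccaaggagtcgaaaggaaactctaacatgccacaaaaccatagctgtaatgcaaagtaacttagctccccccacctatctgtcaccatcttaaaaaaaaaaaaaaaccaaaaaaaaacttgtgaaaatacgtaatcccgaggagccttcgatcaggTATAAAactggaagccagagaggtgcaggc
Cxcl9: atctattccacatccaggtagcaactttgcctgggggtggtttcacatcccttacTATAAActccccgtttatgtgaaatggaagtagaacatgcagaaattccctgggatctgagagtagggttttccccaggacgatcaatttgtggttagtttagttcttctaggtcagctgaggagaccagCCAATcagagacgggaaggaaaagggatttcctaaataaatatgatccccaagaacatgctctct
Cxcl10: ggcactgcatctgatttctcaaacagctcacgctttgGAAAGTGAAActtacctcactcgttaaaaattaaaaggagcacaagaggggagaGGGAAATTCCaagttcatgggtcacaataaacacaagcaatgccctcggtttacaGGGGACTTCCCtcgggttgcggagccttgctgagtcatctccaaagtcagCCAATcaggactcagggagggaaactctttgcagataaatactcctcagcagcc

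The Cxcl10 window held an ISRE match 213 to 204 bases upstream of the start, an NF-kB match at 159 to 150, a pair of NF-kB matches that overlap each other at 104 to 95 and 103 to 94, and a CCAAT box at 54 to 50. The Ifng window held a GAS match at 249 to 241 and a TATA box at 30 to 25. The Cxcl9 window held a TATA match at 195 to 190 and a CCAAT box at 65 to 61, and these letters gave no ISRE, GAS or NF-kB match in it. The longest run shared by the Cxcl9 and Cxcl10 windows was cagccaatcag, 11 bases around the CCAAT box. Of the other members with a window, Ifngr2 had an NF-kB match and a CCAAT box, Ifngr1 had 2 CCAAT boxes and Cxcr3 had none of the 5. Across all 32851 windows of this length, 2.98% held the ISRE letters, 7.02% the GAS letters, 7.25% the NF-kB consensus, 33.8% CCAAT and 12.4% TATAAA. A match in letters is a description of the sequence and does not show that a factor binds there.

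The ligand came first in the pathway and differed plainly. Ifng stood at 6.93, 6.98 and 8.07 on the oxazolone arrays, at 4.84, 4.38 and 4.62 on the urushiol arrays and at 4.46, 4.80 and 4.46 on the control arrays. Every oxazolone array lay above all others, while urushiol and control arrays overlapped below the array median. Ifng rose by 2.75 ± 0.31 in oxazolone skin against control skin (log2 difference ± standard error of limma's moderated test, n = 3 arrays each, adjusted p = 0.0028). In urushiol skin the difference from control was 0.04 ± 0.31, with a 95% interval of -0.69 to 0.77 and an adjusted p of 0.968.

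The receptor chain genes did not rise with either allergen. Ifngr1, the gene of the ligand-binding chain, stood at 11.96, 11.22 and 11.38 in oxazolone skin, at 12.07, 11.48 and 11.97 in urushiol skin and at 12.55, 12.95 and 12.15 in control skin. No array of either allergen reached the lowest control array. The fall in oxazolone skin was 1.03 on the log2 scale, a difference of -1.03 ± 0.28 that passed narrowly (limma, adjusted p = 0.0465). In urushiol skin it was -0.71 ± 0.28 and did not pass (limma, adjusted p = 0.128). The oxazolone call rested on single arrays: limma's adjusted p was 0.117 without control array 1, 0.138 without control array 2, 0.129 without oxazolone array 2 and 0.123 without oxazolone array 3, and it was 0.0617, 0.0553 and 0.0764 without urushiol arrays 1, 2 and 3, which share the estimate of spread.

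Ifngr2, the gene of the signalling chain, gave no difference that passed. Its arrays stood at 10.15, 10.01 and 10.15 in oxazolone skin, 10.34, 9.84 and 10.21 in urushiol skin and 10.43, 10.43 and 9.90 in control skin, with all groups overlapping. The difference from control was -0.15 ± 0.18 for oxazolone (95% interval -0.57 to 0.27) and -0.12 ± 0.18 for urushiol (95% interval -0.54 to 0.30).

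**Figure D1:**
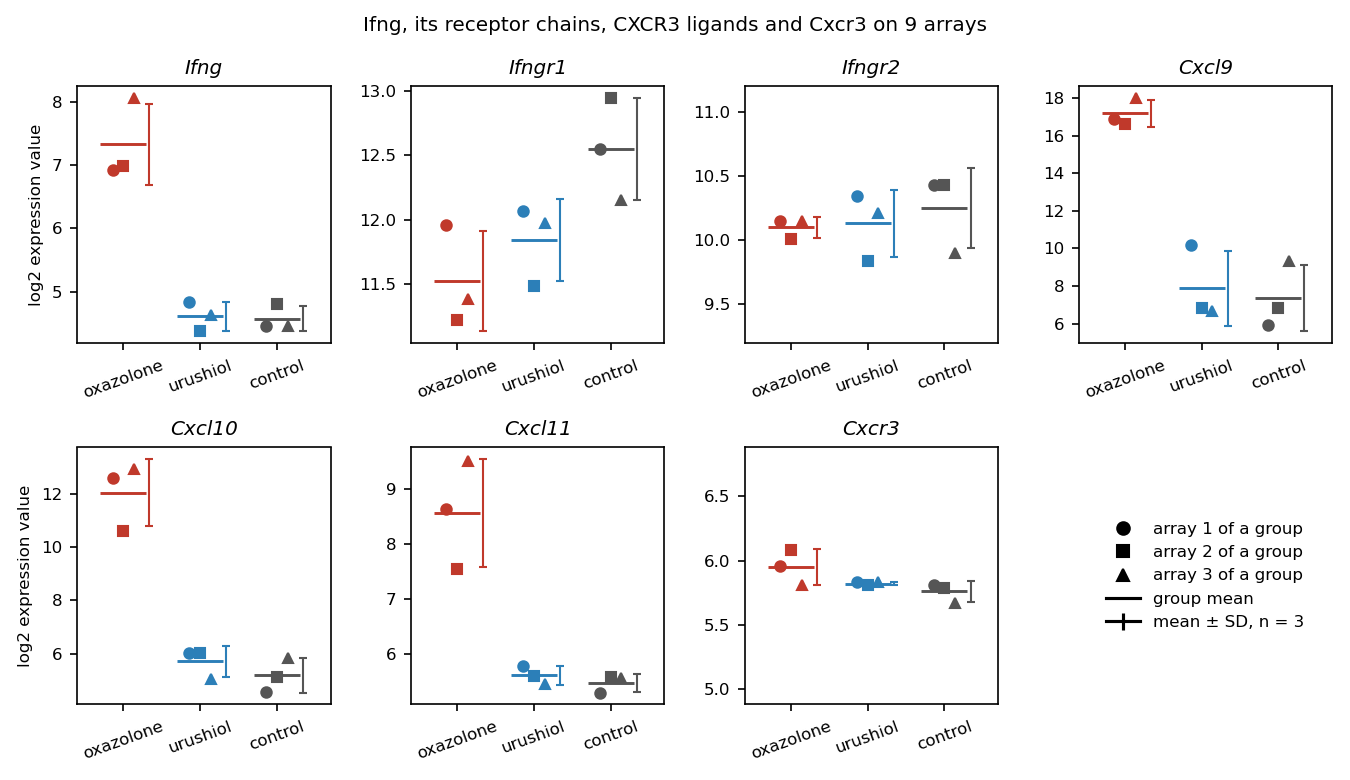
Deposited log2 values of the 7 genes on each of 9 arrays, 1 panel per gene with its own vertical axis, for oxazolone, urushiol and control skin. Points are arrays, and the bar and whiskers are the mean and SD of 3 arrays. Ifng, Cxcl9, Cxcl10 and Cxcl11 lie higher on every oxazolone array than on any urushiol or control array.

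Among the chemokine genes, all 3 rose in oxazolone skin. Cxcl9 stood at 16.91, 16.61 and 18.02 on the oxazolone arrays, at 10.18, 6.82 and 6.65 on the urushiol arrays and at 5.94, 6.81 and 9.34 on the control arrays. The urushiol and control groups each held 1 array well above its other arrays, urushiol array 1 and control array 3, and the lowest oxazolone array was above both. Cxcl9 rose by 9.82 ± 1.19 in oxazolone skin against control (95% interval 7.01 to 12.62, limma adjusted p = 0.00367). The oxazolone values lie past 16, where the scale is not explained, so the size of this difference is less certain than its direction.

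Cxcl10 stood at 12.59, 10.60 and 12.94 in oxazolone skin, at 6.04, 6.04 and 5.04 in urushiol skin and at 4.56, 5.13 and 5.85 in control skin. It rose by 6.86 ± 0.66 in oxazolone skin (95% interval 5.31 to 8.42, limma adjusted p = 0.00172). The urushiol difference was 0.53 ± 0.66 (95% interval -1.03 to 2.08, limma adjusted p = 0.649), with overlapping arrays. Some control and urushiol arrays of Cxcl10 lay below the array median, where values are dim. Cxcl9 in urushiol skin differed from control by 0.52 ± 1.19 (95% interval -2.28 to 3.32, limma adjusted p = 0.823), an interval wide enough to hold a sizeable change either way. Without single arrays that difference was between -0.63 (without urushiol array 1) and 1.51 (without control array 3).

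Cxcl11 stood at 8.64, 7.55 and 9.50 in oxazolone skin, at 5.79, 5.60 and 5.46 in urushiol skin and at 5.30, 5.59 and 5.56 in control skin. It rose by 3.08 ± 0.43 in oxazolone skin (limma adjusted p = 0.00604) and differed by 0.13 ± 0.43 in urushiol skin (95% interval -0.89 to 1.15). Urushiol and control values of Cxcl11 lay close to the array median, where values are dim. RefSeq lists Cxcl11 as a transcribed pseudogene in the mouse reference assembly, which is of a C57BL/6 substrain, so these values describe an RNA and not a protein.

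Cxcl9, Cxcl10 and Cxcl11 lie next to each other on chromosome 5, and in the RefSeq table the span of Art3, a gene of the ADP-ribosyltransferase family, covers Cxcl10 and Cxcl11. Art3, named here after its values were seen, was lower with both allergens. It stood at 8.09, 7.48 and 8.38 in oxazolone skin, at 8.16, 7.97 and 8.38 in urushiol skin and at 11.37, 11.22 and 8.99 in control skin. It fell by 2.54 on the log2 scale with oxazolone (limma adjusted p = 0.0337) and fell by 2.36 with urushiol (limma adjusted p = 0.0426). Each call was lost in 8 of 9 fits that left out an array. The exception was control array 3, without which limma's adjusted p was 0.000448 with oxazolone and 0.000557 with urushiol. Skeletal muscle markers averaged 17.13, 17.11 and 14.56 on the control arrays in the same order, and less with both allergens. The part of muscle RNA in the Art3 differences was not tested.

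Cxcr3, the receptor gene, showed only small differences. Its arrays stood at 5.96, 6.08 and 5.81 in oxazolone skin, at 5.83, 5.81 and 5.83 in urushiol skin and at 5.81, 5.79 and 5.67 in control skin, close to the array median. The difference from control was 0.19 ± 0.07 for oxazolone (95% interval 0.02 to 0.36, limma adjusted p = 0.11) and 0.07 ± 0.07 for urushiol (95% interval -0.10 to 0.24, limma adjusted p = 0.592). The same value of 5.81 appears on 3 arrays, and 47.8% of all genes have 3 or more arrays with equal deposited values.

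In counts, 4 of the 7 genes rose in oxazolone skin, where 9.63% of all genes were called higher, and 1 of 7 fell, where 6.92% were called lower. Arrays of these 4 genes did not overlap between the groups, as was so for 21.3% of all genes in the higher direction, and those of Ifngr1 did not, as for 11.5% in the lower direction. None of the 7 passed limma's test in urushiol skin, where 16.4% of all genes were called, 9.96% higher and 6.43% lower, and 1 of them, Ifngr1, had an unadjusted p under 0.05. The counts were the same without control array 3. The median log2 difference of the 7 genes was 2.75 with oxazolone, against 0.06 over all genes, and 0.07 with urushiol, against 0.04 over all genes. Urushiol arrays lay apart from control for 21.1% of all genes in the higher direction, none of them among the 7, and for 11.8% in the lower direction, which included Ifngr1. Both comparisons use the same control arrays. A moderated F test of any difference among the 3 groups gave adjusted p = 0.00341 for Ifng, 0.00485 for Cxcl9, 0.00239 for Cxcl10 and 0.00796 for Cxcl11 (limma).

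Urushiol was then set directly against oxazolone. Ifng was at -2.71 ± 0.31 (95% interval -3.44 to -1.99), Cxcl9 at -9.30 ± 1.19 (-12.10 to -6.49), Cxcl10 at -6.34 ± 0.66 (-7.89 to -4.78) and Cxcl11 at -2.95 ± 0.43 (-3.97 to -1.93), as log2 differences of urushiol minus oxazolone. All 4 intervals lie below 0 and the arrays do not overlap, yet none passed adjustment over all genes: limma's adjusted p was 0.0767, 0.0991, 0.0767 and 0.128 in that order. Unadjusted p values for these 4 were between 2.41e-05 and 0.000229. Of all genes, 0.0166% were called between the allergens, 0.00664% higher and 0.00995% lower in urushiol skin. In 4.39% of all genes every urushiol array lay below every oxazolone array, and in 5.35% every urushiol array lay above, which was so for none of the 7. Single arrays moved these calls: without oxazolone array 2 limma's adjusted p was 0.0478 for Ifng, 0.0151 for Cxcl10 and 0.0217 for Cxcl11, and without oxazolone array 3 it was 0.012 for Ifng. With the replicate number as a block over the 6 challenged arrays, the adjusted p of these 4 genes was between 0.354 and 0.396 (limma). Ifngr1, Ifngr2 and Cxcr3 differed between the allergens by 0.32 (95% interval -0.33 to 0.97), 0.03 (-0.39 to 0.45) and -0.13 (-0.30 to 0.04).

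**Figure D2:**
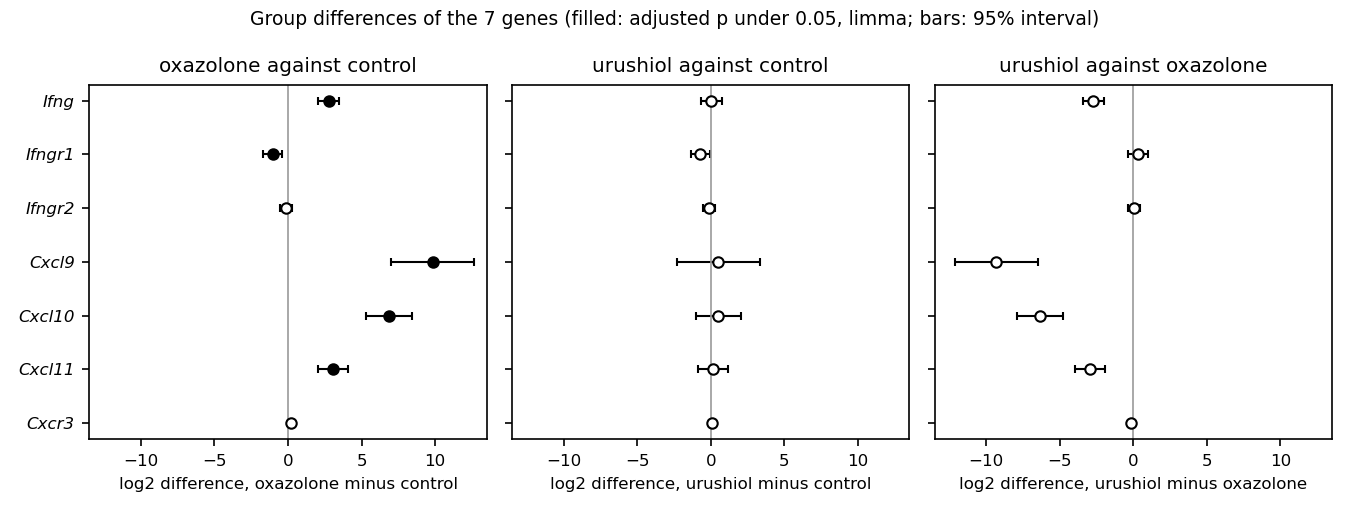
Log2 differences of the 7 genes with 95% intervals, for oxazolone minus control, urushiol minus control and urushiol minus oxazolone, with filled points at a limma adjusted p under 0.05. Intervals for Ifng, Cxcl9, Cxcl10 and Cxcl11 lie above 0 in oxazolone against control, span 0 in urushiol against control and lie below 0 in urushiol against oxazolone, where none passed the adjusted threshold.

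Of 16 measured JAK, STAT and interferon regulatory factor genes and their inhibitors, 11 rose in oxazolone skin and none fell, while 2 rose in urushiol skin. Several of these also serve type I interferons, among them Stat2, Usp18, Irf7 and Irf9. The median log2 difference of the 16 was 0.85 with oxazolone and 0.08 with urushiol. Beside their counts, 9.63% of all genes were called higher and 6.92% lower with oxazolone, and 9.96% higher with urushiol. Irf1, the interferon-induced transcription factor, stood at 10.82, 10.34 and 12.22 in oxazolone skin, 7.37, 6.87 and 6.85 in urushiol skin and 7.29, 7.38 and 7.11 in control skin, a rise of 3.87 ± 0.44 with oxazolone (limma adjusted p = 0.00305). Irf1 has 2 clusters, and their mean rose by 2.29 (adjusted p = 0.00684). Usp18, a restraint on type I interferon signalling, rose by 3.49 ± 0.51 and Stat2, a transcription factor of type I interferon responses, by 2.89 ± 0.48 in oxazolone skin. Their urushiol differences were -0.79 and -0.53, and neither passed. Jak2, the kinase bound to IFNGR2, rose with both allergens, by 2.14 ± 0.20 with oxazolone and 1.06 ± 0.20 with urushiol. The urushiol call was lost without control array 2, urushiol array 1 or urushiol array 3 (limma adjusted p from 0.0512 to 0.0538). Ptpn2, a phosphatase that acts on JAK kinases, rose by 0.85 ± 0.11 and 0.63 ± 0.11 in the same order. Jak1 was at -0.24 ± 0.19 and 0.03 ± 0.19 and passed neither test. Socs1, an inhibitor of JAK kinases, rose by 0.59 ± 0.14 in oxazolone skin (limma adjusted p = 0.033), a call lost in 5 of 9 fits that left out an array, where the adjusted p reached 0.0947.

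Of 25 measured interferon gamma target genes, 14 rose in oxazolone skin and none fell, and 3 rose in urushiol skin. The shares over all genes were 9.63% higher and 6.92% lower with oxazolone, and 9.96% higher with urushiol. The list's median difference was 1.27 with oxazolone and -0.01 with urushiol. Gbp2, a guanylate-binding protein of cell-autonomous defence, stood at 16.32, 15.52 and 18.05 in oxazolone skin, 9.84, 8.33 and 8.67 in urushiol skin and 8.89, 9.67 and 9.64 in control skin. It rose by 7.23 ± 0.68 in oxazolone skin (limma adjusted p = 0.0016). As with Cxcl9, oxazolone values of Gbp2 lie past 16, on arrays 1 and 3. The sizes of its differences between oxazolone skin and either other group are therefore less certain than their direction. Iigp1 and Igtp, immunity-related GTPases, rose by 5.98 ± 0.68 and 5.62 ± 0.71 in oxazolone skin, and were at -0.35 ± 0.68 and -1.02 ± 0.71 in urushiol skin without passing. Acod1, which makes itaconate in activated macrophages, rose with both allergens, by 6.41 ± 0.33 with oxazolone and 5.67 ± 0.33 with urushiol. Fcgr1, a high-affinity receptor for IgG, rose by 2.18 ± 0.14 with oxazolone and 1.06 ± 0.14 with urushiol. Fas, a death receptor, rose by 0.79 ± 0.13 and 0.99 ± 0.13, but its 2 clusters disagreed and the mean of both gave limma adjusted p values of 0.0509 and 0.456. Without control array 3, 12 target genes rose in oxazolone skin and 1, Serping1, the gene of a complement inhibitor, fell by 1.48 (limma adjusted p = 0.0327), against -1.27 ± 0.35 and an adjusted p of 0.0507 with all arrays. Among the 17 target genes with an upstream window, 5 held the ISRE letters (B2m, Gbp2, Gbp3, Igtp and Irgm1), 29.4%, against 3.46% of all genes with a window, and 29.4% held the GAS letters, against 8.13%.

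**Figure D3:**
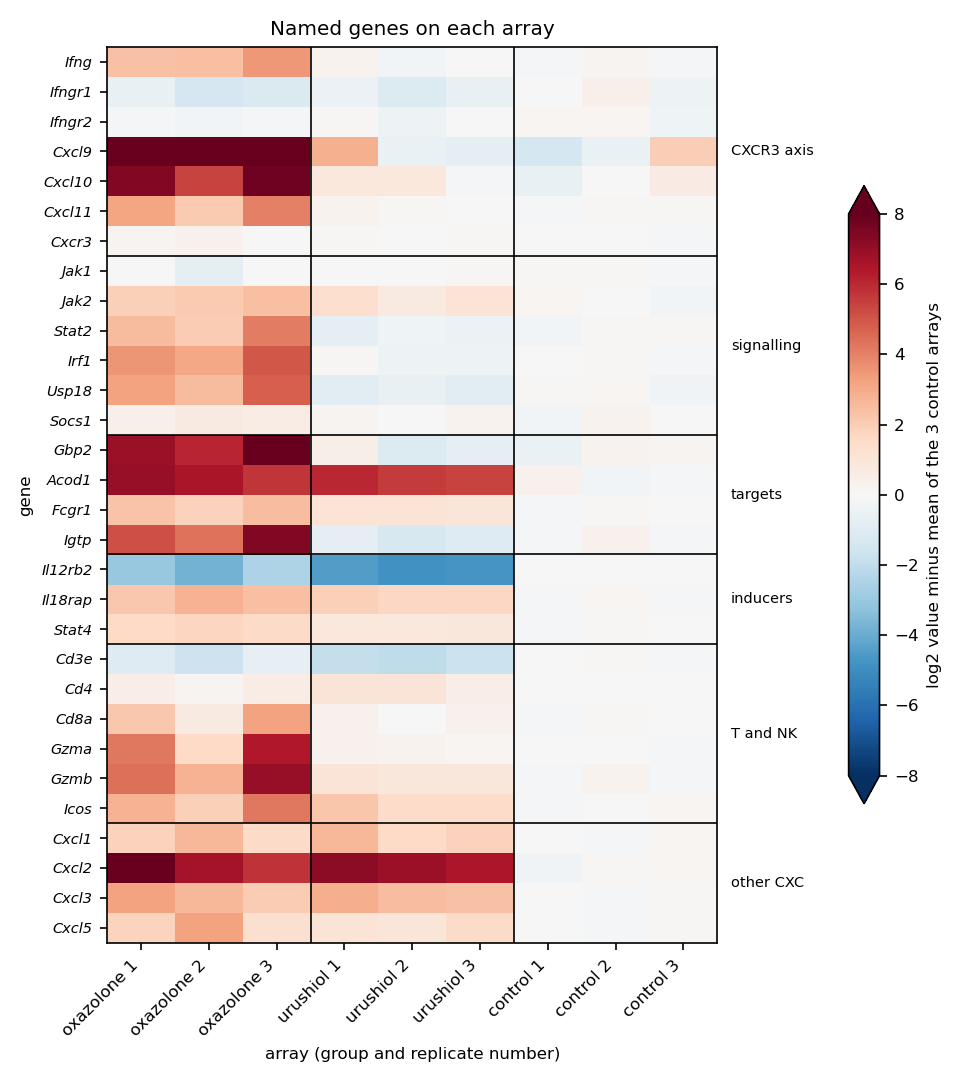
Log2 values of the 7 genes and their pathway on 9 arrays, each gene shown as its difference from its own control mean on a colour scale that ends at 8 either way, with columns for oxazolone, urushiol and control arrays. The oxazolone columns of Ifng, Cxcl9, Cxcl10, Cxcl11, Irf1 and Gbp2 lie above control, and the urushiol columns of these genes lie mostly near it.

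In the direct comparison of the allergens, 5 genes of 30142 passed, all at an adjusted p of 0.0486 (limma), and 2 of these belong to the pathway lists. Gbp2 was lower in urushiol skin than in oxazolone skin, at -7.68 ± 0.68, as was Stat4, a transcription factor that drives Ifng in T cells, at -0.77 ± 0.07. The other calls were Rgs16, Pcdhb17 and Smpd1, named because they complete the count. Each of the Gbp2 and Stat4 calls was lost without any one of 7 arrays, the exceptions being oxazolone arrays 2 and 3, at adjusted p values of 0.0553 to 0.376 for Gbp2 and 0.0526 to 0.298 for Stat4. With the replicate block the adjusted p was 0.242 over 9 arrays and 0.347 over the 6 challenged arrays.

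Of 11 measured genes of other interferons and their receptors, 2 rose in oxazolone skin and 1 in urushiol skin, where 9.63% and 9.96% of all genes were called higher. Ifnar2, a type I interferon receptor chain, rose by 0.61 ± 0.16 and the type I ligand gene Ifna4 by 0.43 ± 0.12 in oxazolone skin. Each call was lost in 8 of 9 fits that left out an array, with limma's adjusted p up to 0.127 and 0.121. Il10rb, a shared chain of the interferon lambda receptor, rose by 0.62 ± 0.14 in urushiol skin, a call lost without control array 1 or any one of the urushiol arrays (limma adjusted p from 0.0686 to 0.0906), after quantile normalization and with the 9-array replicate block. The ligand gene Ifnb1 was at 0.19 ± 0.14 with oxazolone and 0.25 ± 0.14 with urushiol and passed neither test. Its values, from 4.59 to 5.22, were dim on all 9 arrays, so a change in it could be missed.

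Of 19 genes that induce Ifng, 3 rose and 2 fell in oxazolone skin, and 2 rose and 3 fell in urushiol skin. These counts stand beside 9.63% of all genes called higher and 6.92% lower with oxazolone, and 9.96% and 6.43% with urushiol. Stat4 stood at 6.92, 7.05 and 6.82 in oxazolone skin, 6.14, 6.14 and 6.19 in urushiol skin and 5.25, 5.39 and 5.30 in control skin, and rose by 1.62 ± 0.07 and 0.84 ± 0.07 against control. Il18rap, an accessory chain of the interleukin-18 receptor, rose by 2.45 ± 0.17 with oxazolone and 1.75 ± 0.17 with urushiol. Il12rb2, a chain of the interleukin-12 receptor, stood at 7.54, 6.75 and 8.08 in oxazolone skin, 6.11, 5.72 and 5.85 in urushiol skin and 10.55, 10.54 and 10.58 in control skin, with no overlap among the groups. It fell by 3.10 with oxazolone and by 4.66 with urushiol on the log2 scale. Il12b, Il18 and Tbx21, the gene of the transcription factor T-bet, gave no difference that passed. Their differences were 0.06, 0.19 and 0.17 with oxazolone and 0.09, 0.64 and 0.12 with urushiol. Il12b, at 5.02 to 5.25, and Tbx21, at 4.74 to 5.06, were dim on all 9 arrays, so a change in them could be missed. Tyk2, a kinase of the interleukin-12 receptor, was called lower with both allergens, by 0.34 and 0.39 (differences of -0.34 and -0.39), each call being lost in 8 of 9 fits that left out an array, where the adjusted p reached 0.148 and 0.11 without control array 2.

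Markers of T and NK cells, the main sources of interferon gamma and carriers of CXCR3, were higher on average in oxazolone skin, but not uniformly. The mean log2 value of 22 markers was 6.99, 6.30 and 7.52 on the oxazolone arrays, 5.87 to 6.05 on the urushiol arrays and 5.90 to 5.96 on the control arrays. Of the 22, 9 rose and 1 fell in oxazolone skin (6 and 1 without control array 3), and 2 rose and 2 fell in urushiol skin. The other 12 were not called with oxazolone, Cd3g among them. Over all genes, the shares called higher and lower were 9.63% and 6.92% with oxazolone, and 9.96% and 6.43% with urushiol. The urushiol counts lie near those shares. Gzmb, the granzyme B gene of cytotoxic cells, rose by 4.71 ± 0.92, Icos, a costimulator of activated T cells, by 2.97 ± 0.54, and Gzma, the granzyme A gene, by 4.07 ± 1.04 in oxazolone skin. Cd8a, a coreceptor of cytotoxic T cells, rose by 2.02 ± 0.55 in oxazolone skin, and the Gzma and Cd8a calls were each lost in 8 of 9 fits that left out an array, the exception being oxazolone array 2, without which limma's adjusted p was 0.00564 and 0.00608. The T cell receptor complex gene Cd3e fell instead, by 1.10 with oxazolone and by 1.87 with urushiol, and Cd3g fell by 1.25 with urushiol. The Cd3g call was lost in 7 of 9 fits that left out an array, with limma's adjusted p up to 0.0938. The Gzmb and Cd3e calls with oxazolone were each lost without control array 1, control array 2 or oxazolone array 1 (adjusted p up to 0.062 and 0.0798), and the Icos call without control array 1 or 2 (up to 0.0534). Cd4 rose by 0.88 ± 0.15 in urushiol skin. The part of cell number in the Ifng and chemokine results was not tested. Macrophage, monocyte and dendritic cell markers averaged 9.62 to 10.57 in oxazolone skin, 9.84 to 10.37 in urushiol skin and 9.22 to 9.59 in control skin, and neutrophil markers 8.42 to 9.04, 8.68 to 9.35 and 5.52 to 5.88 in the same order.

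Several chemokine genes whose products act on other receptors rose with both allergens. Of 12 other CXC chemokine genes, 4 rose in oxazolone skin and 3 in urushiol skin, beside 9.63% and 9.96% of all genes called higher. Cxcl2, a neutrophil attractant that acts on CXCR2, stood at 14.05, 12.75 and 11.92 in oxazolone skin, 13.26, 12.97 and 12.57 in urushiol skin and 5.85, 6.22 and 6.26 in control skin. It rose by 6.80 ± 0.50 and 6.82 ± 0.50, and urushiol minus oxazolone was 0.03 (95% interval -1.14 to 1.20). Cxcl1 rose by 2.01 ± 0.36 and 2.03 ± 0.36 and Cxcl3 by 2.64 ± 0.29 and 2.57 ± 0.29, with oxazolone first in each. The Cxcl1 calls were lost without control array 2, at limma adjusted p of 0.0529 and 0.0508, and with oxazolone also without control array 1, at 0.0504. Cxcl5 rose by 2.11 ± 0.45 in oxazolone skin, a call lost without control array 1, control array 2 or oxazolone array 1 (adjusted p up to 0.0765), and was at 1.18 ± 0.45 in urushiol skin (limma adjusted p = 0.117). The upstream windows of Cxcl1, Cxcl2 and Cxcl3 held an NF-kB match, as 3 of 9 such genes with a window, against 8.23% of all genes.

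Of 19 other receptors and modifiers, 5 rose and 3 fell with each allergen. Called higher and lower were 9.63% and 6.92% of all genes with oxazolone, and 9.96% and 6.43% with urushiol. Ccr1, a receptor of monocytes and neutrophils, rose by 4.75 ± 0.28 with oxazolone and 4.36 ± 0.28 with urushiol, and Cxcr4, the receptor of CXCL12, by 2.73 ± 0.58 and 3.10 ± 0.58. Ccr4, a homing receptor of skin T cells, fell by 2.66 and by 3.61. Ackr1, a chemokine-binding atypical receptor of venules and red cells, fell by 1.72 and by 1.78, and Ackr4, a scavenger of CC chemokines, by 1.07 and by 1.05. Of 9 fits that left out an array, the Ackr1 call was lost in 5 with oxazolone and 4 with urushiol (limma adjusted p up to 0.0732 and 0.066). The Cxcr4 call was lost in 4 and 3 of them (up to 0.0779 and 0.0563), and the Ackr4 call with urushiol in 1, without urushiol array 1 (0.0511). Cxcr6, a receptor of activated T cells named after its values were seen, rose by 1.20 ± 0.20 in oxazolone skin and was at 0.17 ± 0.20 in urushiol skin. Dpp4, a peptidase that trims CXCR3 ligands, was at -0.46 ± 0.23 and -0.33 ± 0.23 and passed neither test.

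**Figure D4:**
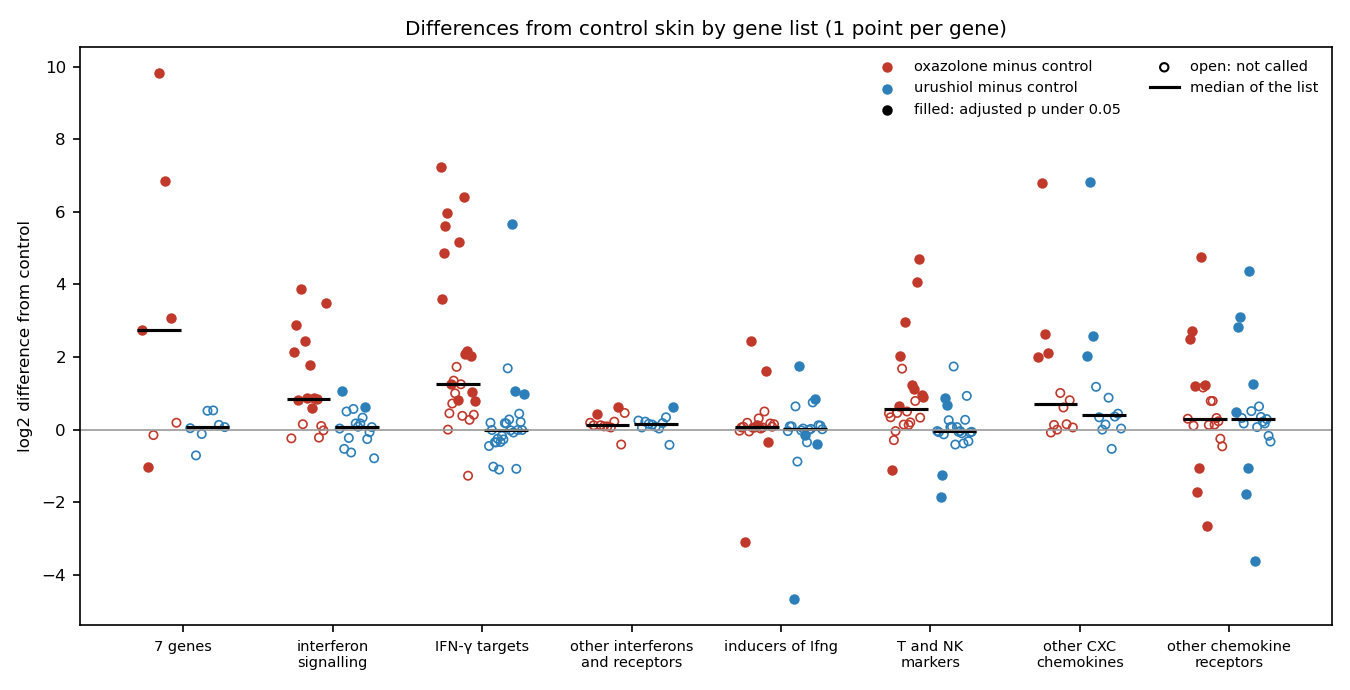
Log2 differences from control of the 7 genes and of every measured gene in the 7 pathway lists, for oxazolone and urushiol, with a point per gene, filled where limma's adjusted p was under 0.05, and a line at each list's median. The signalling and target lists have medians of 0.85 and 1.27 with oxazolone and 0.08 and -0.01 with urushiol.

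The oxazolone arrays also differed among themselves. Cxcl9, Cxcl10 and Cxcl11 were each highest on array 3 and lowest on array 2, with ranges of 1.41, 2.34 and 1.95. Ifng was highest on array 3 as well, by 1.14 over its lowest, but lay lowest on array 1. The same order of arrays 3, 1 and 2 held for 19 of 25 target genes (76%), 7 of 16 signalling genes and 16 of 22 T and NK markers (72.7%), including Gzmb at 9.04, 7.38 and 11.57 and Cd8a at 6.85, 5.42 and 7.90 on arrays 1, 2 and 3. It held for 9.87% of all genes and for 25.8% of the genes called higher in oxazolone skin. Among other CXC chemokines it held for 1 of 12. Muscle markers took it in 10 of 12, and what part any shared source has in the order was not tested.

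The genes most alike in pattern were sought by the lowest root mean square difference between profiles centred on their own means, over 9 arrays. Nearest to Ifng were Oas1b and Nmi (each 0.30 log2 units), Ddx58 (0.31), Cxcl11 (0.33) and Zbp1 (0.34). Nearest to Cxcl11 were Mx2 (0.18), Dtx3l (0.23), Nmi (0.25), Xaf1 (0.26) and Ddx60 (0.30). Nearest to Cxcl10 were Ifit1 (0.36), Iigp1 (0.66), Rsad2 (0.68), Gbp2 (0.80) and Igtp (0.93), and nearest to Cxcl9 were Gbp2 (1.43), Cxcl10 (1.75), Ifit1 (1.93), Iigp1 (2.01) and Igtp (2.15). The nearest gene to Cxcl9 was thus farther off than the nearest to Ifng, Cxcl10, Cxcl11 or Cxcr3. Profiles were centred and not scaled, so such distances also grow with how widely a gene's values range. Cxcl9 had the largest group difference of the 7 genes. Ifit1, a sensor of foreign RNA, stood 6.66 above control in oxazolone skin and 0.84 above it in urushiol skin, and Mx2, an antiviral GTPase, 3.43 and 0.37 above it, as log2 differences. These genes were chosen on the same 9 arrays for their likeness, so the values describe the choice and are given with no test. Nearest to Cxcr3, whose profile is nearly flat, were Ptgs2os, Tex48 and Iyd (each 0.03), and Vmn1r125 and Napsa (each 0.04).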

How the data were processed

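Total RNA of neck skin was hybridised to 9 Affymetrix mouse arrays, and groups came from the sample labels. The deposited values are log2 expression values made by the authors, per the submitters' processing notes with Affymetrix Expression Console 1.4 and RMA (background correction, quantile normalisation and summary of probes per cluster by definition), with the Transcriptome Analysis Console also named. The sources used here do not name the genome build of the annotation.

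Of 72688 features, 6732 controls were left out, and 30604 of 65956 clusters had 1 symbol. Symbols of 827 were updated through the gene ID to RefSeq GRCm38.p6, and the cluster with the highest mean over 9 arrays represented each of 30142 genes. Group means were fitted to all 9 arrays together and compared by limma's moderated test (lmFit, eBayes, version 3.58.1, under R 4.3.3), two-sided, with Benjamini-Hochberg adjustment over all genes and a threshold of 0.05, and the code was tested on simulated data. With 3 arrays in each of 2 groups, the smallest exact permutation p is 0.1. Arrays carry no depth, and their number limits the precision.

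The members, lists and alternatives were chosen with earlier results of these data known. Named genes are the members, the 3 called genes with the largest difference per list and comparison, those called against their list's majority, fixed pathway partners and the 5 genes most alike to each ligand gene and Cxcr3. Art3, Cxcr6, Serping1, Ifnb1, Rgs16, Pcdhb17 and Smpd1, and genes named for a motif, an array order or a small count, were chosen after their values were seen. Upstream sequences are from RefSeq, which gave a window for 6 of the 7 members. Between oxazolone and urushiol arrays of the same number, deviations from the group means had correlations of 0.201, 0.197 and 0.124. Oxazolone and urushiol arrays of different number had correlations from -0.18 to 0.0214. Control and challenged arrays of different number had correlations from -0.29 to 0.285, a range that holds the values above. No label states a pairing, and whether the numbers mark pairs is not known. Between control and challenged arrays of the same number the correlations ran from -0.232 to 0.337, so controls do not pair by this measure. All values are from the fit without a block unless the replicate block is named.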

Additional observations from a re-analysis of the deposited data

How the results depend on the processing

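The 7 genes gave 361 results under alternatives, of which 339 kept direction and side of the threshold, 13 newly passed, 9 no longer passed and none reversed. All 9 that no longer passed were Ifngr1 in oxazolone against control, under 7 fits that left out an array, the 2 groups alone and the replicate block (adjusted p = 0.0633, limma). Ifng, Cxcl9, Cxcl10 and Cxcl11 in oxazolone against control passed under every alternative that gave a value, with adjusted p up to 0.0203, 0.02, 0.0152 and 0.0353 in that order, and Ifng had none where dim genes were left out. The member count there was 5, and 4 to 5 without 1 array. In urushiol against control it was 0, also without any 1 array, and 1 after a new quantile normalization (Ifngr1 at -1.12, adjusted p = 0.0394). In urushiol against oxazolone it was 0, 0 to 3 without 1 array, 2 without dim genes, 2 after quantile normalization and 4 with array weights. With the replicate number as a block, over 9 or the 6 challenged arrays, it stayed at 0. The block changed no other call of the 7 genes.

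Listed pathway genes called were 54, 26 and 2 in oxazolone against control, urushiol against control and urushiol against oxazolone. Without 1 array they ran from 31 (without control array 1) to 57, from 16 (without urushiol array 1) to 33, and from 0 to 19 (without oxazolone array 2). The first was 28 with the 2 groups alone. The last was 9 without dim genes, 7 after quantile normalization, 13 with array weights, and 0 under median centring, the 2 groups alone, either replicate block and trended robust variances. Over all genes the counts were 4989, 4942 and 5. They ran from 2107 (without control array 1) to 8019 (without control array 3), from 2189 (without urushiol array 1) to 7655 (without control array 3), and from 0 to 94 (without oxazolone array 2). The 2 groups alone gave 2198, 2324 and 2, and array weights 7688, 8135 and 54. The last count was also 34 without dim genes, 19 after quantile normalization, and 0 under median centring, either replicate block and trended robust variances. After quantile normalization higher calls made up 42.6% of those in oxazolone against control (2098 higher and 2828 lower, against 2904 and 2085 as deposited) and 46.1% in urushiol against control. The cause of these shifts was not tested. The 66 named genes gave 3411 such results: 3141 kept direction and side, 85 newly passed and 185 no longer passed. With 3 arrays a group the intervals are wide, and in urushiol against oxazolone even intervals that exclude 0 did not pass adjustment over all genes. The file holds no detection calls, so a dim gene's level is not known to lie above background.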
